A study of Mus musculus with 7 samples.

Results

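The receptors for the constant (Fc) part of immunoglobulin were examined in alveolar macrophages, which live on the air side of the lung and clear inhaled material. The mice were C57BL/6 and 4 months old. The group was taken by gene symbol and held 6 genes, Fcgr1, Fcgr2b, Fcgr3, Fcgr4, Fcer1g and Fcgrt. All 6 were among the 26143 symbol-bearing rows of the count table and among the 12759 genes tested. Sorted cells of 4 WT libraries were compared with those of 3 libraries from Cish-/- mice, here KO, both on the C57BL/6 strain and without treatment in the labels. Cish encodes a SOCS family protein that restrains cytokine receptor signalling, and the series asks what its loss does to the lung-specific programme of these macrophages. The labels do not say how the Cish allele was made, whether it is lost in all cells, or whether the libraries stem from different animals. P-values therefore measure only the spread between these libraries, which may be technical.

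Receptors for IgG let a macrophage recognise antibody-coated particles. Fcgr1 (CD64) binds monomeric IgG with high affinity, while Fcgr3 (CD16) and Fcgr4 (CD16-2) bind immune complexes, and all of them signal through the shared gamma chain Fcer1g, whose tyrosine motif (ITAM) recruits the kinase Syk. Fcgr2b (CD32) carries an inhibitory motif (ITIM) that recruits the lipid phosphatase SHIP-1, encoded by Inpp5d, and so sets the threshold of the activating receptors. Fcgrt, the heavy chain of the neonatal Fc receptor, pairs with beta-2-microglobulin inside endosomes and returns IgG and albumin from degradation.

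On mouse chromosome 1 (GRCm38.p6), Fcgr2b (170960558 to 170976071, minus strand), Fcgr4 (171018926 to 171029761, plus strand), Fcgr3 (171051169 to 171065915, minus strand) and Fcer1g (171229572 to 171234349, minus strand) lie close together. Fcgr1 lies on chromosome 3 (96282909 to 96293969, minus strand) and Fcgrt on chromosome 7 (45092993 to 45103822, minus strand). GENCODE places an antisense gene over Fcgr2b (Gm38204) and over Fcgrt (Gm45669). Neither is listed in the count table, and in these libraries reads of both strands would be counted together.

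Fcgr2b and Fcgr3 are close paralogs, so their coding sequences are shown to make clear how far reads of the inhibitory and of an activating receptor can be told apart. Over 784 aligned coding bases the transcripts Fcgr2b-201 and Fcgr3-201 were identical at 83.3%, with 1 identical run of 129 bases. The 90 bases below are a part of that run, from coding base 278 of Fcgr2b and coding base 263 of Fcgr3, and are the same in both.
Fcgr2b and Fcgr3: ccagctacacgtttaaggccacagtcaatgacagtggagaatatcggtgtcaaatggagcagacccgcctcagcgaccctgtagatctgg
Of the stretches of 90 bases aligned without a gap, the least alike begins at coding base 116 of Fcgr2b and 101 of Fcgr3, and its 14 differing bases are in capitals. Stretches across gaps in the alignment were not compared.
Fcgr2b: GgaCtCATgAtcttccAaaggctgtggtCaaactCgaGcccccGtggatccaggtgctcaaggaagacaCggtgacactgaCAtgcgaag
Fcgr3: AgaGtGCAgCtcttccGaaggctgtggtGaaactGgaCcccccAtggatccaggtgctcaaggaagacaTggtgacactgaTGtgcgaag
Of all 50-base windows of the Fcgr3 coding transcripts, 10.2% also occur in another gene, in each case Fcgr2b. For Fcgr2b the share was 6.72%, with 166 of its 249 shared windows in Fcgr3, and for Fcgr1, Fcgr4, Fcer1g and Fcgrt 0 windows were shared. The counts of Fcgr2b and Fcgr3 may therefore hold some reads of one another, and those of the other receptors are not affected in this way at that length.

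Total counts lay between 26780291 and 34483612. Cish, the targeted gene, stood at 29.6 to 67.9 CPM (counts scaled to a library of 1000000) in WT and at 10.9 to 14.3 in KO, with reads left in every KO library. The edgeR adjusted p was 0.0519, that of DESeq2 2.81e-11. The 12 alveolar macrophage markers were all detected, and Chil3 was the most abundant of them. They summed to 24226 to 60388 CPM in WT and 49114 to 82639 in KO, but 5 of the 12 were lower in KO, the median log2 fold change was 0.12, and DESeq2 called 2 lower and 1 higher. A principal component analysis put 42.6% of the variance on its first axis, where WT 4 had a score of 7.27, apart from the other WT libraries (-39.4 to -24.1) and towards KO (18.3 to 43.9). WT 4 and KO 3 stand last in the table, though the labels give no batch. The edgeR test called 11 of 12759 genes, 0.0862%, with 6 higher and 5 lower in KO (5 and 7 with library sizes only), and DESeq2 called 753, or 5.71%.

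Among these receptors the high-affinity receptor Fcgr1 and the neonatal receptor Fcgrt were lower in KO, without overlap between the genotypes, at 72.2% and 67.0% of the WT mean. The other activating receptors, the inhibitory receptor and the gamma chain overlapped between genotypes. By edgeR, 0 of the 6 receptor genes passed when adjusted over all genes, and 2, both lower, had an unadjusted p below 0.05, as had 8.85% of all genes in that direction. DESeq2 called those same genes, Fcgr1 and Fcgrt, both lower, where it called 3.02% of all genes lower. With no filter on low counts edgeR called both as well, among 1.79% of all genes. Genotypes were separate for 2 of the 6, both lower in KO, and 8.72% of all genes were separate in that direction. The median log2 fold change was -0.06 over the 6 genes and 0.00 over all tested genes. In bulk samples, fewer cells of a type and less RNA per cell cannot be told apart.

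**Figure D1:**
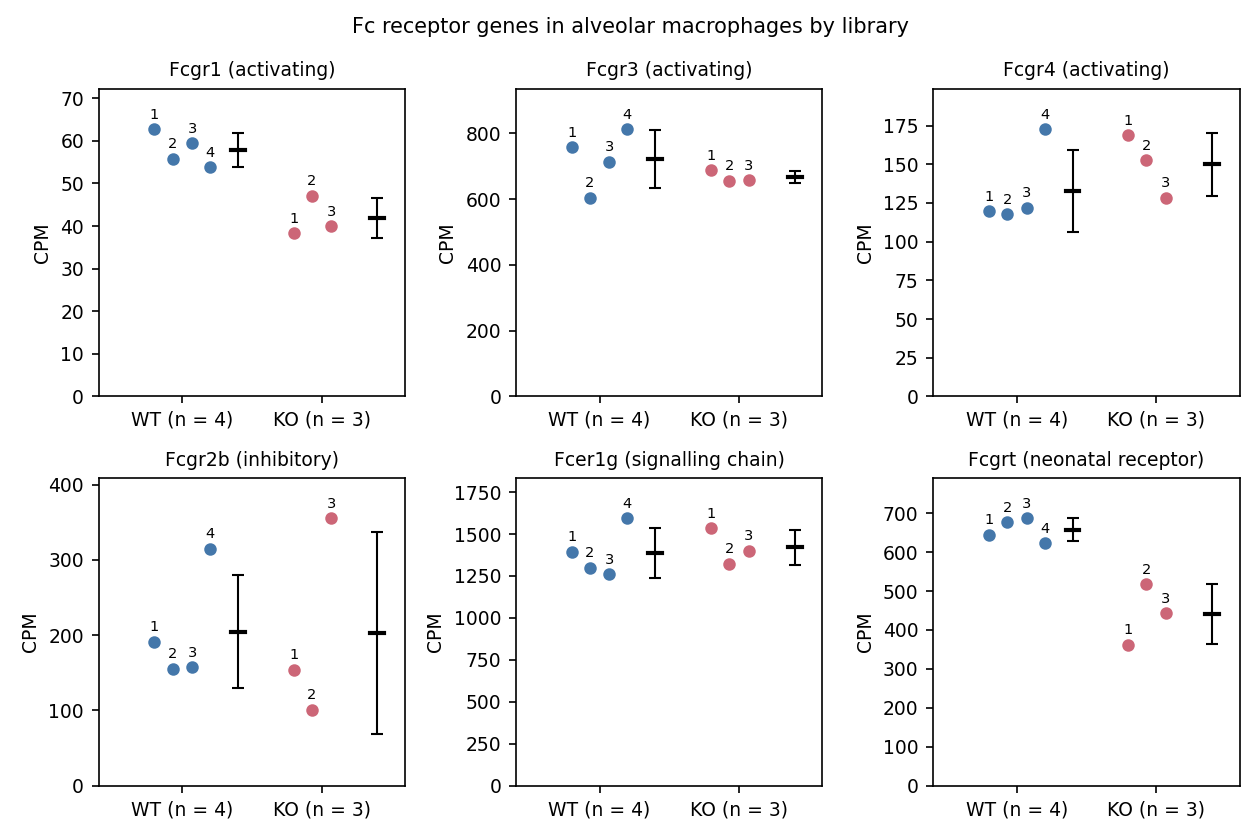
CPM of the 6 Fc receptor genes in each library (blue points WT, red points KO, numbers are the replicate), with the mean and SD of each genotype as black bars beside the points. Fcgr1 and Fcgrt do not overlap between genotypes, and Fcgr2b is highest in WT 4 and KO 3, at 315 and 355 CPM.

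Fcgr1 was measured at 62.8, 55.8, 59.4 and 53.8 CPM in WT 1 to WT 4 and at 38.4, 47.2 and 40.0 CPM in KO 1 to KO 3. Every KO library was below every WT library, and the nearest pair was KO 2 and WT 4. The means were 58.0 CPM ± 3.97 (SD, n = 4) and 41.8 CPM ± 4.69 (SD, n = 3), 1.39-fold lower in KO. The log2 fold change was -0.47 (SE 0.10), with a 95% interval from -0.69 to -0.25. The gene missed the edgeR threshold at an adjusted p of 0.0940 and passed DESeq2 at 0.00318. Its sign was the same in all 16 alternatives, and without WT 4 edgeR called it (adjusted p 0.0498), in a fit that called 2.25% of all genes. With any other single library left out edgeR did not call it, and without KO 1 its adjusted p was 0.396.

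The region upstream of Fcgr1 is shown because this gene is a textbook target of STAT proteins through a GAS element, the palindromic type of site that STAT dimers bind. A GAS (TTCNNNGAA, which is its own reverse complement), an ISRE (GAAA and GAAA with 2 bases of any kind between them, both strands), the element of interferon-stimulated genes, and a PU.1 core (GAGGAA, both strands), the site of a macrophage lineage factor, were searched in windows of 300 bases around RefSeq starts. The motifs do not overlap one another in the stretch below, chr3:96293970-96294219 of GRCm38.p6 (RefSeq), minus strand, where matches are in capitals.
Fcgr1: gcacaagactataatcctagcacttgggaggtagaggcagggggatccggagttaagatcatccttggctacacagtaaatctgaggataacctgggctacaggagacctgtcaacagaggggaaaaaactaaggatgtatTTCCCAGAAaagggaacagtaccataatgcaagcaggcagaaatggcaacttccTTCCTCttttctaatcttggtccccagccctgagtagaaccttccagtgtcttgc
The GAS match began 109 bases before the start, and the PU.1 core, on the reverse strand, 55 bases before it. Of 32851 such windows in the mouse genome, 8.30% held a GAS, 3.44% an ISRE and 28.3% a PU.1 core. Among the receptor genes Fcgr1 alone held a GAS match in its window.

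Fcgr4 held the sole ISRE match among the receptor genes, 73 bases before its start, and a reverse PU.1 core 22 bases before it. The stretch chr1:171018676-171018919 (GRCm38.p6, RefSeq, plus strand) is given for comparison with Fcgr1, with those matches in capitals.
Fcgr4: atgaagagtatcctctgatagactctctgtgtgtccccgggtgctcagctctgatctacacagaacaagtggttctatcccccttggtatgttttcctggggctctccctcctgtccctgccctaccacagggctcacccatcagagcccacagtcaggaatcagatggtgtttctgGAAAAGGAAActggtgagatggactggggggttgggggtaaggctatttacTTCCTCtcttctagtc
Fcgr3 also held a reverse PU.1 core, 6 or 15 bases before its start, depending on the RefSeq start used. A match is a description of the letters only, and binding was not measured here.

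Fcgr4 was measured at 120, 118, 122 and 173 CPM in WT 1 to WT 4 and at 169, 153 and 129 CPM in KO 1 to KO 3. WT 4 was above every KO library, and the other WT libraries were below every KO library. The log2 fold change was 0.17 (SE 0.15), with a 95% interval from -0.17 to 0.52 and an edgeR adjusted p of 0.587. In the 5 libraries other than WT 4 and KO 3, edgeR gave 0.43 (SE 0.09, adjusted p 0.0455), in a fit that called 4.57% of all genes. That set was chosen after the data were seen. It leaves out the highest WT and the lowest KO value of Fcgr4, which by itself widens the difference. Without WT 4 alone edgeR gave 0.33, with an adjusted p of 0.139.

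Fcgr3, the most abundant IgG receptor, was measured at 758, 605, 714 and 813 CPM in WT and at 688, 656 and 657 CPM in KO. The KO libraries lay within the WT range. The log2 fold change was -0.11 (SE 0.11), with a 95% interval from -0.35 to 0.12 and an edgeR adjusted p of 0.602. The gamma chain Fcer1g stood at 1394, 1299, 1262 and 1594 CPM in WT and at 1535, 1324 and 1401 CPM in KO, again within the WT range. Its log2 fold change was 0.03 (SE 0.10), with a 95% interval from -0.20 to 0.27 and an edgeR adjusted p of 0.897, and -0.013 with library sizes only. A difference of either gene within its interval was not resolved with these libraries.

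Fcgr2b, the inhibitory receptor, was the most variable of the group. It was measured at 191, 155, 158 and 315 CPM in WT 1 to WT 4 and at 154, 101 and 355 CPM in KO 1 to KO 3. The highest library of each genotype was WT 4 or KO 3, and the highest of all was 3.53 times the lowest. Over the 7 libraries the coefficient of variation was 46.0%, against 8.77% to 22.3% for the other receptor genes. The log2 fold change between genotypes was -0.01 (SE 0.40), with a 95% interval from -0.92 to 0.90 and an edgeR adjusted p of 0.994. The value moved to -0.68 without KO 3 (adjusted p 0.282) and to 0.28 without WT 4 (0.731). It was -0.40 in the 5 other libraries (0.261) and -0.23 (0.531) where a model term took up the shift of WT 4 and KO 3.

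Fcgrt was measured at 645, 677, 687 and 623 CPM in WT 1 to WT 4 and at 362, 518 and 444 CPM in KO 1 to KO 3. Every KO library was below every WT library, and the WT libraries varied by 4.44% around their mean. The means were 658 CPM ± 29.2 (SD, n = 4) and 441 CPM ± 77.9 (SD, n = 3), 1.49-fold lower in KO. The log2 fold change was -0.58 (SE 0.12), with a 95% interval from -0.85 to -0.31, an edgeR adjusted p of 0.0944 and a DESeq2 adjusted p of 0.000783. The sign was the same in all 16 alternatives, with values from -0.71 without KO 2 to -0.45 without KO 1. With any single library left out edgeR did not call Fcgrt (adjusted p 0.0584 to 0.361, the highest without KO 1). Without WT 4 and KO 3 the difference was -0.60 (SE 0.16, edgeR adjusted p 0.0747).

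**Figure D2:**
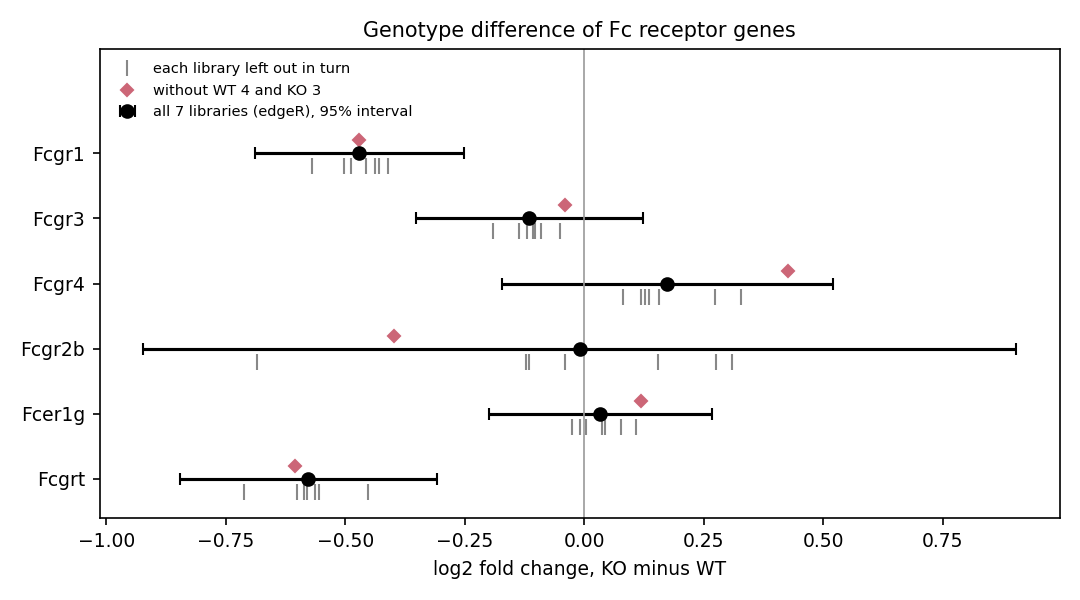
Log2 fold change of KO against WT for each Fc receptor gene on the horizontal axis, with the value over all 7 libraries and its 95% interval (black), each library left out in turn (grey ticks), and the fit without WT 4 and KO 3 (red diamonds). Fcgr1 and Fcgrt stay below 0 in every fit shown, and the interval of Fcgr2b reaches from -0.92 to 0.90.

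The region upstream of Fcgrt, chr7:45103852-45104072 (GRCm38.p6, RefSeq, minus strand), is shown because this gene had the larger of the differences that passed DESeq2. It held no match to the motifs above, and neither did the rest of the 300-base window, which says only that these letters are not there.
Fcgrt: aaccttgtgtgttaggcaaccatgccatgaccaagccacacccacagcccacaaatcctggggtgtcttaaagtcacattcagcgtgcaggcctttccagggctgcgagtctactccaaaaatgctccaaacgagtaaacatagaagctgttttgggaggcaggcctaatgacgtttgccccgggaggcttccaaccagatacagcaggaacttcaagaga
The tested protein-coding genes within 100 kb of Fcgrt, a set chosen after the values were seen, numbered 13, with log2 fold changes from -0.88 to 0.45. DESeq2 called 1 of these 13, against 5.71% of all genes. The called gene was the adjacent Rcn3, a calcium-binding protein of the endoplasmic reticulum, which went from 6.55 to 4.19 CPM (log2 fold change -0.65, adjusted p 0.0494 by DESeq2 and 0.163 by edgeR). Around Fcer1g, at the same distance, DESeq2 also called 1 gene, of 9 tested. Within 100 kb of Fcgr1 the 1 tested gene, Bola1, had a log2 fold change of -0.03.

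The levels of different genes were compared per kilobase of exon. In WT the order was Fcer1g at 1587 ± 170, Fcgr3 at 416 ± 50.9, Fcgrt at 313 ± 13.9, Fcgr4 at 106 ± 21.2, Fcgr2b at 35.4 ± 13.0 and Fcgr1 at 22.4 CPM per kb ± 1.53 (SD, n = 4). In KO the order was the same, at 1625 ± 122, 384 ± 10.6, 210 ± 37.0, 119 ± 16.1, 35.1 ± 23.2 and 16.2 CPM per kb ± 1.81 (SD, n = 3). Neighbours in the order did not overlap between libraries of 1 genotype, except Fcgr2b and Fcgr1 in KO, where Fcgr2b in KO 2 stood at 17.4 and Fcgr1 in KO 2 at 18.2 CPM per kb. The exon length of Fcgr2b, 5790 bases, includes retained introns, and with its longest coding transcript of 3544 bases its mean level was 57.8 CPM per kb in WT, with the same place in the order.

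The balance of activating and inhibitory receptors was then read within each library, where the scaling between libraries cancels. Per kilobase, Fcgr1, Fcgr3 and Fcgr4 together stood at 16.8, 17.3, 19.5 and 11.5 times Fcgr2b in WT 1 to WT 4 and at 20.5, 29.7 and 8.09 times in KO 1 to KO 3. WT 4 and KO 3 were lowest in their genotypes, and KO spanned the whole WT range. With the longest coding transcripts the same ratios were 8.57 to 14.6 in WT and 6.04 to 22.0 in KO.

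Each activating receptor was also set against Fcgr2b alone, as the log2 ratio of read counts. For Fcgr1 the WT mean was -1.76 ± 0.53 (SD, n = 4) and the KO mean -2.08 ± 1.03 (SD, n = 3), a difference of -0.32 (exact permutation test, 2-sided, p = 0.514). For Fcgr3 it was 1.87 ± 0.35 and 1.92 ± 0.93, a difference of 0.04 (exact permutation p = 0.914). For Fcgr4 it was -0.58 ± 0.24 and -0.25 ± 1.08, a difference of 0.33 (exact permutation p = 0.629). The adjusted p over the 3 ratios was 0.914 for each by the exact permutation test, whose smallest possible p with these groups was 0.0571. KO 3 had the lowest value of every ratio, and without it the difference was 0.21 for Fcgr1, 0.56 for Fcgr3 and 0.94 for Fcgr4.

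Within the activating receptors the make-up differed by library. Fcgr1 gave 3.32% to 4.65% of their summed CPM per kb in WT and 2.71% to 3.52% in KO. Fcgr4 gave 17.1% to 21.9% in WT and 20.6% to 24.6% in KO, and Fcgr3 the rest, 74.7% to 78.5% in WT and 72.7% to 76.3% in KO. Fcgr3 made up most of the sum in every library, and WT 4 lay within the KO range for all 3 shares.

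Read counts gave 1.91, 2.11, 2.05 and 3.21 reads of Fcgr4 per read of Fcgr1 in WT 1 to WT 4. The KO libraries had 4.40, 3.23 and 3.22, in the order KO 1 to KO 3. This ratio was looked at after the values were seen and was not tested. The genotypes did not overlap, but WT 4 was level with KO 2 and KO 3.

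**Figure D3:**
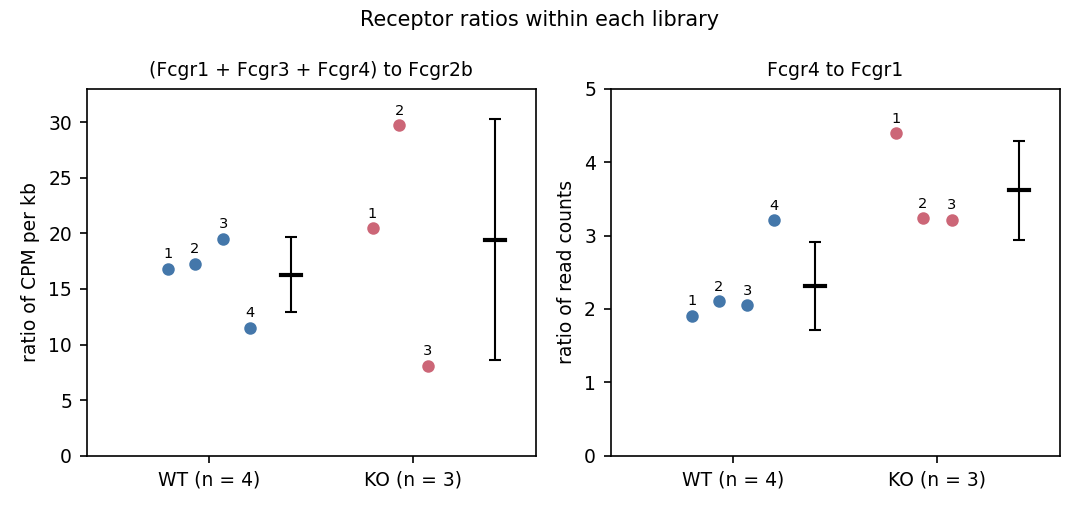
Receptor ratios in each library (blue points WT, red points KO, numbers are the replicate), with mean and SD as black bars: the summed CPM per kb of Fcgr1, Fcgr3 and Fcgr4 over that of Fcgr2b (left) and the read counts of Fcgr4 over those of Fcgr1 (right). On the left KO spans 8.09 to 29.7 around the WT values, and on the right WT 4 lies at 3.21, level with KO 2 and KO 3.

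The receptor genes were compared with one another by the root mean square (RMS) difference of their log2 CPM, each centred on its own mean over the 7 libraries. Fcgr1 and Fcgrt were the closest pair at 0.11, next to Fcgr3 with Fcer1g, also at 0.11. The RMS distance of a gene from its own mean was 0.26 for Fcgr1, 0.33 for Fcgrt, 0.13 for Fcgr3 and 0.12 for Fcer1g. Fcgr3 and Fcer1g thus lay about as far from one another as each from its own mean. The farthest pair was Fcgr2b with Fcgrt at 0.69. Although Fcgr2b, Fcgr3 and Fcgr4 are neighbours on chromosome 1, Fcgr2b lay 0.55 from Fcgr3 and 0.62 from Fcgr4. Both distances are close to the 0.59 of Fcgr2b from its own mean.

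By the same measure over 7867 genes of at least 10 CPM, the genes nearest to Fcgr1 were the peroxisomal Pex11g (RMS difference 0.035) and an entry that the table lists as the date 10-Sep (0.043). Nearest to Fcgrt were the leukotriene-synthesis enzyme Alox5 (0.047) and Mdp1 (0.069). Alox5 stood at 426 to 519 CPM in WT and 272 to 379 in KO. Nearest to Fcgr4 were Atpif1, an inhibitor of the mitochondrial ATP synthase (0.061), and Ptgr1 (0.068). Nearest to Fcgr3 were Taf12 (0.042) and Mea1 (0.046), and to Fcer1g Polr2f (0.022) and Timm17b (0.032).

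For Fcgr2b the nearest genes were the chloride channel Best1 at 0.17 and the fatty acid elongase Elovl6 at 0.21. These distances are larger than those above, but Fcgr2b also varied more. Its RMS distance from its own mean was 0.59, against 0.12 to 0.33 for the other receptor genes. Best1 stood at 56.3, 40.7, 47.6 and 96.4 CPM in WT 1 to WT 4 and at 33.7, 28.4 and 86.4 CPM in KO 1 to KO 3. As for Fcgr2b, WT 4 and KO 3 were highest. These are descriptions over 7 shared libraries and carry no test.

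Around the receptors, kinases and adaptors of the activating pathway went both ways, with 15 of 30 higher and 15 lower in KO. By edgeR 0 of 30 passed and 12 had an unadjusted p below 0.05, 8 of them lower, where 18.0% of all genes had such a p in either direction. DESeq2 called 3 lower and 2 higher, against 5.71% of all genes. The median log2 fold change was 0.01, as against 0.00 over all genes.

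Fgr, a Src family kinase, stood at 293 to 361 CPM in WT and 173 to 255 in KO, a log2 fold change of -0.57 (edgeR adjusted p 0.109, DESeq2 0.00565).

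Pik3r5, a regulatory subunit of phosphoinositide 3-kinase gamma, stood at 76.1 to 90.7 CPM in WT and at 145, 114 and 111 CPM in KO (log2 fold change 0.58, adjusted p 0.0923 by edgeR and 0.00104 by DESeq2). Plcg1, a phospholipase C named here after its value was seen, had a log2 fold change of 0.88. It was called higher by DESeq2 (adjusted p 0.0176) but not by edgeR. The protein kinase C Prkce, at no more than 1.34 CPM in any library, had a log2 fold change of -1.56 (DESeq2 adjusted p 0.0380). Syk itself, also chosen after its value was seen, stood at 156 and 177 CPM, with a log2 fold change of 0.18 and an edgeR adjusted p of 0.484. Pik3r5 passed edgeR without WT 4 and without KO 3, in fits that called 2.25% and 1.67% of all genes. Leaving out any other single library, edgeR did not call Pik3r5, with an adjusted p of 0.368 without KO 1.

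Phosphatases and adaptors of the inhibitory pathway were lower in KO for 11 of 12 genes, and their median log2 fold change was -0.17. Without WT 2 only 7 of the 12 were lower. By edgeR 0 passed, 5 had an unadjusted p below 0.05, all lower, and DESeq2 called 2, Csk and Ubash3b, also lower. Over all genes these shares were 8.85% and 3.02%. Csk, the kinase that switches Src family kinases off, stood at 51.0 to 56.5 CPM in WT and at 36.4, 39.1 and 44.9 CPM in KO (log2 fold change -0.43, adjusted p 0.0950 by edgeR and 0.00460 by DESeq2). Ubash3b, a phosphatase that acts on Syk, stood at 119 to 184 CPM in WT and at 96.2, 96.5 and 107 CPM in KO (-0.58, adjusted p 0.102 by edgeR and 0.00356 by DESeq2). Ptpn6, the phosphatase SHP-1, had a log2 fold change of -0.32, with KO 2 above WT 4 (edgeR adjusted p 0.165). The SHIP-1 gene Inpp5d, which acts downstream of Fcgr2b and was chosen after its value was seen, stood at 98.0 CPM in WT and 96.6 in KO (-0.02, edgeR adjusted p 0.945).

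The machinery that wraps membrane and actin around IgG-coated particles had 24 of 38 tested genes lower, with a median log2 fold change of -0.07. By edgeR 0 passed and 8 had an unadjusted p below 0.05, all lower. DESeq2 called Rac1 and Myo1f, both lower, against the same 8.85% and 3.02% of all genes. The GTPase Rac1 stood at 1054 to 1105 CPM in WT and 935 to 961 in KO, a log2 fold change of -0.20 (adjusted p 0.192 by edgeR and 0.0482 by DESeq2). The motor protein Myo1f stood at 428 to 487 CPM in WT and 371 to 377 in KO (-0.25, adjusted p 0.153 by edgeR and 0.0410 by DESeq2). Cdc42, a GTPase of filopodia and phagocytic cups, and Coro1a, an actin-binding protein, had log2 fold changes of -0.24 and -0.48 and were called by neither test (edgeR adjusted p 0.187 and 0.180).

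Of the 12 tested partner and trafficking genes of Fcgrt, 6 were lower and 6 higher, and the list's median log2 fold change was 0.02. Without WT 4, 3 were lower and 9 higher. By edgeR 0 passed and 2 had an unadjusted p below 0.05, 1 in each direction, a share near the 18.0% of all genes. B2m, whose product is the obligate light chain of the neonatal receptor, stood at 3195, 2989, 3121 and 3979 CPM in WT 1 to WT 4 and at 4313, 3714 and 3682 CPM in KO 1 to KO 3 (log2 fold change 0.23, edgeR adjusted p 0.337). Fcgrt and B2m thus had opposite signs, and the B2m groups overlapped through WT 4. Snx1, a sorting nexin of endosomes, was lower by DESeq2, at 742 and 585 CPM (-0.34, adjusted p 0.0101 by DESeq2 and 0.111 by edgeR). Rab11fip5, an adaptor of recycling endosomes, had 20.5 and 28.9 CPM (0.50, edgeR adjusted p 0.166).

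**Figure D4:**
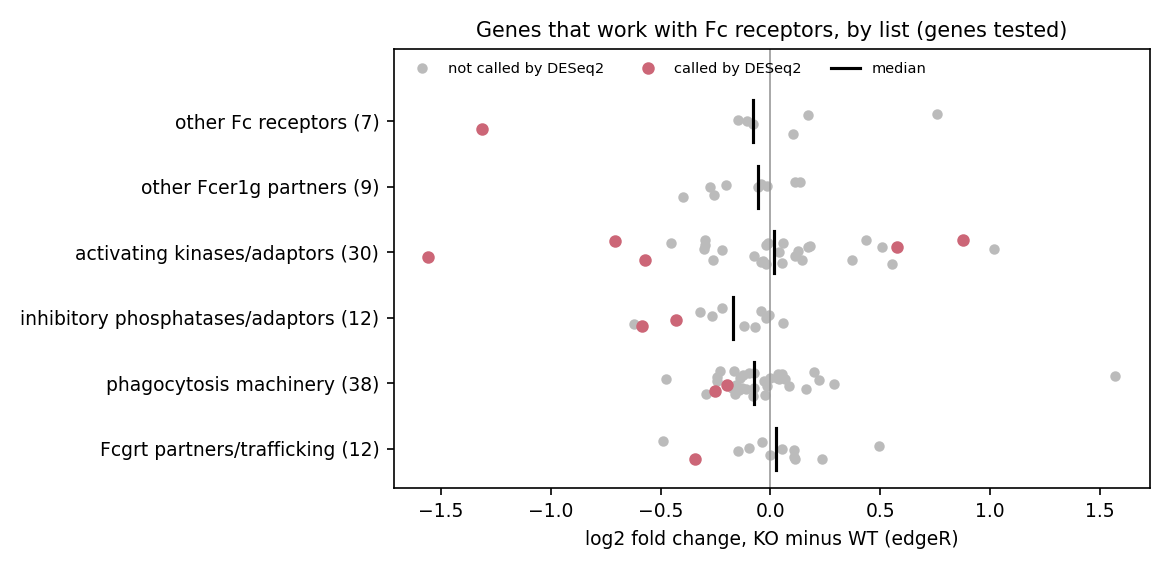
Log2 fold change of KO against WT (edgeR) for each tested gene of 6 lists around the Fc receptors, with genes called by DESeq2 in red, the others in grey and the list median as a black bar. The medians lie between -0.17 and 0.02, and the genes called by DESeq2 are 9 lower and 2 higher in KO. Over all genes DESeq2 called 3.02% lower and 2.68% higher.

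Other receptors that use the gamma chain did not pass either test. Of 9 tested, 7 were lower, and the median of the 9 was -0.06 on the log2 scale. By edgeR 1 of the 9 had an unadjusted p below 0.05, as had 18.0% of all genes in either direction. Without KO 3 only 4 of the 9 were lower, and in the 5 libraries other than WT 4 and KO 3 only 3. Lilra5, a leukocyte immunoglobulin-like receptor, ranged from 307 to 361 CPM in WT and from 267 to 305 in KO (edgeR log2 fold change -0.26, adjusted p 0.183). Pira6 and Cd300lb had log2 fold changes of -0.20 and -0.40, with overlap between genotypes.

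Of 15 other receptors and lectins that bind immunoglobulin, 7 were abundant enough to test. The C-type lectin Cd209b stood at 4.03, 10.1, 6.71 and 6.73 CPM in WT and at 2.18, 3.15 and 2.98 CPM in KO, without overlap (log2 fold change -1.31, SE 0.30, adjusted p 0.0975 by edgeR and 0.00118 by DESeq2). By edgeR 0 of the 7 passed and 1, Cd209b, had an unadjusted p below 0.05, as had 18.0% of all genes in either direction. Cd209b was also the 1 of the 7 called by DESeq2 and the 1 without overlap. Over all genes 3.02% were called lower by DESeq2 and 8.72% were separate and lower. Galectin-3 (Lgals3) stood at 3295 and 3708 CPM (log2 fold change 0.17, edgeR adjusted p 0.399), and Fcrla, near the floor of detection, at 0.287 and 0.482 CPM. The IgE receptor chains Fcer1a and Ms4a2, the IgE receptor Fcer2a, the polymeric receptor Pigr and Fcamr were below the filter.

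Several other blood cells carry the same receptors, so their markers were read in each library. B cells carry Fcgr2b, and their markers Ms4a1 and Cd79a stood at 0.721 and 0.752 CPM in WT and at 0.599 and 0.946 CPM in KO. The list of 9 summed to 134 to 149 CPM in WT and 131 to 141 in KO, nearly all from Cd22, a sialic acid receptor. The 7 NK cell markers, led by Klrb1c, summed to 1.10 to 2.63 CPM in WT and 0.772 to 6.50 in KO. The 8 T cell markers, led by Lat, which is also in the kinase and adaptor list, summed to 4.87 to 9.42 and 8.12 to 18.4 CPM. All 7 tested T cell markers were higher in KO. DESeq2 called 1 of these 7 and 1 of the 2 tested NK cell markers, both higher, where it called 2.68% of all genes higher.

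The 10 neutrophil markers, led by S100a8, summed to 7.76 to 20.2 CPM in WT and 13.3 to 35.3 in KO. The 12 markers of monocytes and interstitial macrophages, led by Ccr2, summed to 10.2 to 25.2 and 16.5 to 30.8 CPM. The 7 dendritic cell markers, led by Clec9a, summed to 4.60 to 6.23 and 3.42 to 8.27 CPM, and the 4 eosinophil markers, led by Ccr3, to 0.0938 to 0.688 and 0.231 to 0.515 CPM. The 8 mast cell and basophil markers, led by Gata2, summed to 0.448 to 1.41 CPM in WT and 1.54 to 2.94 in KO. DESeq2 called 1 of the 3 tested markers higher, against 2.68% of all genes. Ms4a2, Mcpt4 and Tpsb2 of that list, and Ly6g of the neutrophil list, had 0 reads in all libraries, which allows up to 0.117 CPM of each in the shallowest library.

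Outside the blood lineages, the 8 lung epithelium markers, led by Epcam, summed to 194 to 379 CPM in WT and 176 to 196 in KO, but 6 of the 7 tested were higher in KO, with 0 called by DESeq2. The 8 endothelial and fibroblast markers, led by Pecam1, summed to 1.53 to 6.41 and 4.89 to 14.5 CPM, with all 7 tested higher in KO. DESeq2 called 3 of those 7 higher, against 2.68% of all genes. The part of these cells in the lower Fcgr1 and Fcgrt of KO was not tested.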

How the data were processed

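RNA of sorted alveolar macrophages was sequenced in 4 WT and 3 Cish-/- (KO) libraries made with Nextera XT, a kit that does not mark strand. The authors deposited raw read counts per gene symbol, made with rsubread per the file name. The submitters' processing notes name mm10 and DESeq2. Not given in the sources used here are the annotation, the read length and the handling of reads with several positions. Of 27179 rows, 1036 without a symbol were left out, holding 0.376% to 0.424% of each library's counts. No column was left without a sample.

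The analysis used edgeR 4.0.16 under R 4.3.3, with these steps: filterByExpr (12759 genes kept), TMM factors, and the quasi-likelihood F test on genotype with 5 residual degrees of freedom. P-values were adjusted by Benjamini-Hochberg over all genes tested and called below 0.05. CPM are counts scaled to 1000000 per TMM-adjusted library, and errors are SD between libraries or SE of the log2 fold change. Ratios of read counts were compared by an exact permutation test over the 35 assignments of the 7 libraries. The code was tested on simulated data. Alternatives were DESeq2 1.42.0, voom of limma 3.58.1 with sample quality weights, other scalings and filters, the replicate number as a block, and each library left out. Those without WT 4 and KO 3, and with a term for them, were added after seeing the data.

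The members and lists were chosen with earlier results of these data known. The naming rule took every receptor gene, Cish, per list up to 3 genes with the smallest p plus up to 4 called by DESeq2, the most abundant marker of each cell type list, and for each receptor gene the 2 genes with the nearest pattern. Some genes that the rule takes are not reported here. Gene positions, promoters and the RefSeq names are those of GRCm38.p6, the build of mm10. Coding sequences and exon lengths are those of GENCODE M21. The depth, between 26780291 and 34483612 counts per library, gave each receptor gene at least 1087 reads in every library.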

Additional observations from a re-analysis of the deposited data

Results flagged for a closer look

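In the WT group of 4 libraries, 3 of 29 sets of values had a library far from the others by Dixon's criterion, which chance meets in about 1 in 20 groups. Fcgr4 in WT 4 stood at 173 CPM, against 118 to 122 CPM in the other WT libraries. Coro1a in WT 4 stood at 547 CPM, against 706 to 731 CPM. Myo1f in WT 2 stood at 487 CPM, against 428 to 436 CPM.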

How the results depend on the processing

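The number of genes called by edgeR (11) was 753 with DESeq2, 397 with no filter, 21 with at least 5 CPM in at least 3 libraries, 46 with voom, 430 with the replicate block, 590 in the 5 libraries other than WT 4 and KO 3, 19 with a term for those libraries, and 7 to 284 when each library was left out. The highest counts came without WT 4 (284) and without KO 3 (217). The number of Fc receptor genes called (0) was 2 with DESeq2 and with no filter (Fcgr1 and Fcgrt). It was 1 with the replicate block (Fcgrt, adjusted p 0.0370), which called 3.37% of all genes. It was 1 in the 5 libraries (Fcgr4), and 0 to 1 with each library left out. No KO library shares the replicate number of WT 4, so the block took up WT 4 and kept it out of the genotype difference. That fit had 2 residual degrees of freedom. Replicate numbers did not pair the libraries: the correlations of same-numbered libraries were -0.0083, 0.14 and -0.017, and 0 of 3 KO libraries correlated best with its own number.

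The sign of Fcgr1, Fcgr3, Fcgr4 and Fcgrt was the same in all 16 alternatives. Fcgr2b changed sign with the stricter filter (0.0075), with the replicate block (0.070) and when libraries were left out (-0.68 to 0.31). Fcer1g did so with library sizes only (-0.013) and when libraries were left out (-0.026 to 0.11). With each library left out, the ratio to Fcgr2b differed by -0.82 to 0.21 for Fcgr1, -0.35 to 0.56 for Fcgr3 and -0.089 to 0.94 for Fcgr4. The cause of these changes was not tested. The Fcgr3 value was 0.04 as a mean log2 count ratio. Taken as the difference of fitted log2 fold changes, it was -0.10 with edgeR itself and -0.10 with DESeq2. It was -0.051 with voom and -0.12 with the replicate block. The reason for this change of sign was not tested.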
